A study of Mus musculus with 4 samples.

Results

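The CXC chemokines described here are 9 genes, Cxcl1, Cxcl2, Cxcl3, Cxcl5, Cxcl9, Cxcl10, Cxcl12, Cxcl14 and Cxcl16, of the 31227 genes in the deposited count table. They were taken by gene symbol, and each matched 1 Ensembl ID. Messenger levels were read by RNA sequencing of epithelial cells taken from the colons of mice aged 8 to 10 weeks. All the mice had drunk 3.5% dextran sulfate sodium (DSS), which damages the lining of the colon, for 5 days and were killed on day 7 after a return to plain water. The 2 groups were wild-type mice (WT, 2 libraries, replicates 1 and 3) and mice with an epithelial knockout of Smad4, the common partner through which receptor-activated Smads pass TGF-β and BMP signals to genes (Smad4 KO, 2 libraries, replicates 1 and 2). Neither the promoter that drove the deletion nor whether the libraries of a group came from separate mice is given in the sources used here. The p-values thus rest on library-to-library spread alone, and that spread may be technical. No mice without DSS were analysed here, so the comparison is between genotypes under DSS.

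CXC chemokines are small secreted proteins that form gradients and draw white blood cells along them through receptors of the G protein-coupled family. Cxcl1, Cxcl2, Cxcl3 and Cxcl5 carry a glutamate-leucine-arginine (ELR) motif and attract neutrophils through the receptor Cxcr2. In the inflamed gut they are induced through NF-κB by interleukin 1, TNF, interleukin 17 and bacterial products. Cxcl9 and Cxcl10 lack that motif, are induced by interferons and attract activated T cells and natural killer cells through Cxcr3. Cxcl16 is made as a transmembrane protein, binds Cxcr6 and can be shed by the protease Adam10. Cxcl12, which binds Cxcr4, and Cxcl14 are mainly known as products of stromal and resting tissue cells.

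The libraries held 42577920 to 67927291 counts, and levels are given as CPM, the usual library-scaled count unit, with library sizes adjusted by the TMM method. Smad4 was at 152 and 180 CPM in WT and at 51.5 and 41.1 CPM in KO (3.59-fold lower, edgeR adjusted p = 0.00163). The 8 epithelial markers summed to 16026 to 16886 CPM per library, and every other marker list summed to at most 456 CPM. Of all 15838 genes tested, 15.2% changed between the genotypes at an adjusted p under 0.05, 8.83% as higher in KO and 6.40% as lower. These were 1398 and 1014 genes, against 1232 and 1211 with unscaled library totals, and the 2412 changed genes became 978 without KO replicate 1 and 975 without KO replicate 2. The median log2 fold change of all tested genes was 0.007.

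The 4 ELR chemokines lie on the plus strand of chromosome 5, within 147 kb (90759360 to 90905938 in GENCODE M21 on GRCm38). Cxcl9 and Cxcl10 lie on its minus strand (92321347 to 92348889). Promoter sequences of 7 of the 9 genes were found in the RefSeq table (GRCm38.p6, 250 bases before to 50 after the start). Cxcl5 and Cxcl16 had no entry, so their promoters were not searched for any motif. Stretches of 4 are shown because Cxcl1, Cxcl2 and Cxcl3 hold the same NF-κB-type letters, and because Cxcl10 holds both NF-κB-type and interferon-type letters. Each reads 5′ to 3′ along its gene, and positions count back from the RefSeq start. Capitals mark matches to the κB consensus and, in Cxcl10, the first capital run marks an interferon-stimulated response element, 2 copies of GAAA set 2 bases apart.
Cxcl1, chr5:90891135-90891240, plus strand: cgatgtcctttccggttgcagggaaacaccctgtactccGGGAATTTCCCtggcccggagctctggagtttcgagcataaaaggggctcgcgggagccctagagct
Cxcl2, chr5:90903763-90903870, plus strand: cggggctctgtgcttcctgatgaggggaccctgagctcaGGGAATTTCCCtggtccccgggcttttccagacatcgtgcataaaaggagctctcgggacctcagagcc
Cxcl3, chr5:90785991-90786100, plus strand: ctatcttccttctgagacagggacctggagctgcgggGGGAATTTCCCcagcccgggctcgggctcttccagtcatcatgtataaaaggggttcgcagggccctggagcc
Cxcl10, chr5:92348950-92349109, minus strand: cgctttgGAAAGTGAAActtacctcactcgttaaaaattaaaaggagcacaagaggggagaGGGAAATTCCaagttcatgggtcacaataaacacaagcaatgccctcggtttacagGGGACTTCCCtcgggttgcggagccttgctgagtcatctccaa

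The κB consensus, searched on both strands with overlapping matches taken as 1, was present in 4 of the 7 promoters and in 4.51% of all 32851 promoters in the table. The matched stretch was GGGAATTTCCC in Cxcl1 (-71 to -61), Cxcl2 (-97 to -87) and Cxcl3 (-73 to -63), while Cxcl10 held GGGAAATTCC (-159 to -150) and GGGACTTCCC (-103 to -94). The interferon-stimulated response element was present in Cxcl10 (-213 to -204) and Cxcl14 (-172 to -163), against 3.44% of all promoters. The AP-1 site TGANTCA was present in Cxcl9 (32 to 38, after the start) and Cxcl10 (-74 to -68), against 7.81% of all promoters. The TATA box letters TATAAA were present in Cxcl3 (-30 to -25) and, farther from the start, in Cxcl9 (-195 to -190), against 13.6%. The Smad palindrome GTCTAGAC was in 0 of the 7 windows and in 0.213% of all promoters. At that rarity its absence from 7 windows carries no information, and other Smad sites were not searched. None of the capital stretches overlapped another motif. A match describes letters and not binding.

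Of the 9 chemokines, 7 had enough counts to be tested, and all 7 rose in the KO libraries (edgeR quasi-likelihood test, Benjamini-Hochberg adjustment over all tested genes), beside 8.83% of all tested genes that rose. These chemokines were chosen with earlier results of these data known, so that contrast is not an unbiased one. Their folds ran from 2.00 for Cxcl16 to 16.5 for Cxcl5, and their median log2 fold change was 1.83. Both KO libraries lay above both WT libraries for each of the 7, as for 31.0% of all tested genes. All 7 would have passed the filter on low counts from the WT libraries alone. Without KO replicate 1 the count of risen members was 6, and without KO replicate 2 it was 5. Markers of neutrophils were higher in the same KO libraries, and their values are given with the receptors.

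**Figure D1:**
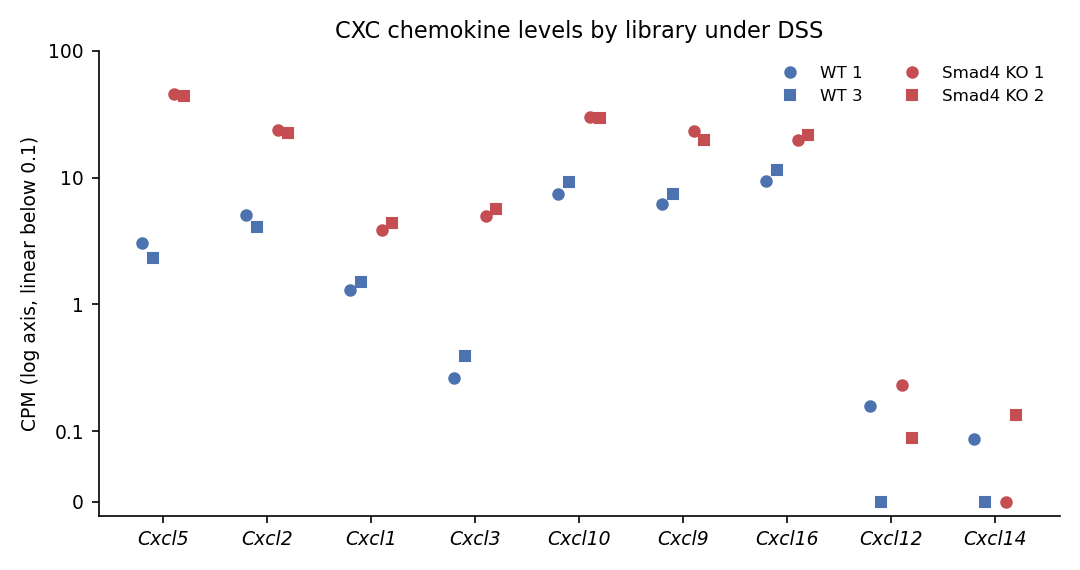
CPM (log axis, linear below 0.1) of each chemokine in each library, with WT in blue and Smad4 KO in red and 1 point per library. Both red points lie above both blue points for Cxcl5, Cxcl2, Cxcl1, Cxcl3, Cxcl10, Cxcl9 and Cxcl16, while the points of Cxcl12 and Cxcl14 overlap near 0.

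Among the neutrophil attractants, Cxcl5 and Cxcl3 showed the largest folds. Cxcl5 (ENSMUSG00000029371), a chemokine that epithelial cells release in inflammation, had 3.07 and 2.34 CPM in WT against 45.9 and 44.0 CPM in KO. Both KO values were thus far above both WT values, and the 4 ratios of a KO to a WT library ran from 14.3 to 19.6. It rose 16.5-fold (log2 fold change 4.05 with an SE of 0.166 and an edgeR adjusted p of 0.000289), and 164 of the 15838 tested genes had a higher log2 fold change. Cxcl3 (ENSMUSG00000029379), a close relative of Cxcl2, had 0.264 and 0.390 CPM in WT and 4.96 and 5.68 CPM in KO. Its WT level rested on 15 and 17 counts, against 298 and 379 in KO. It rose 16.3-fold (log2 fold change 4.03 with an SE of 0.326 and an edgeR adjusted p of 0.00183), with ratios between single libraries of 12.7 to 21.5, which overlap those of Cxcl5.

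Cxcl2 (ENSMUSG00000058427), also called MIP-2, had 5.04 and 4.11 CPM in WT and 23.9 and 22.3 CPM in KO. It rose 5.04-fold (log2 fold change 2.33 with an SE of 0.153 and an edgeR adjusted p of 0.000942), with ratios of 4.43 to 5.82 that lay below those of Cxcl5 and Cxcl3. Cxcl1 (ENSMUSG00000029380), also called KC, had 1.29 and 1.49 CPM in WT and 3.86 and 4.41 CPM in KO. Both KO libraries were higher, and the change was 2.98-fold (log2 fold change 1.57 with an SE of 0.258 and an edgeR adjusted p of 0.0164). The call for Cxcl1 was lost without KO replicate 1 (edgeR adjusted p = 0.0745) and without KO replicate 2 (edgeR adjusted p = 0.116), with log2 fold changes of 1.67 and 1.47. The transcripts of Cxcl2 and Cxcl3 shared 126 stretches of 50 bases, 5.84% of those of Cxcl2 and 3.51% of those of Cxcl3, so the counting could have moved some reads between them. The transcripts of the other 7 genes shared no such stretch with another member.

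The interferon-induced pair rose by similar folds. Cxcl10 (ENSMUSG00000034855), also called IP-10, had 7.48 and 9.17 CPM in WT and 29.9 and 29.4 CPM in KO, a 3.56-fold rise (log2 fold change 1.83 with an SE of 0.139 and an edgeR adjusted p of 0.00150). Cxcl9 (ENSMUSG00000029417), also called MIG, had 6.21 and 7.39 CPM in WT and 23.1 and 19.8 CPM in KO, a 3.16-fold rise (log2 fold change 1.66 with an SE of 0.155 and an edgeR adjusted p of 0.00278). For both genes the KO libraries lay well above the WT libraries. The ratios between single libraries were 3.20 to 4.0 for Cxcl10 and 2.68 to 3.73 for Cxcl9, so the ranges overlap. The gene body of Art3, on the opposite strand and with its introns included, covers the whole of Cxcl10. Whether exons of Art3 lie there was not examined. Without strand-specific counting, any Art3 reads from that stretch could not be told apart from those of Cxcl10. Whether strand was used is not stated, and Art3 had at most 0.285 CPM in any library.

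Cxcl16 (ENSMUSG00000018920, chromosome 11, 70453983 to 70459984, minus strand) was the member with the smallest rise. It had 9.31 and 11.5 CPM in WT and 19.6 and 21.8 CPM in KO, with no overlap between the groups. The change was 2.00-fold (log2 fold change 0.998 with an SE of 0.149 and an edgeR adjusted p of 0.0122), and its call was lost without KO replicate 2 (log2 fold change 0.92, edgeR adjusted p = 0.0794). Zmynd15 overlaps 552 bases of it on the opposite strand and had at most 1.26 CPM.

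The other members were near the limit of detection. Cxcl12 (chromosome 6, 117168535 to 117181367, plus strand) had 9 and 0 counts in WT and 14 and 6 in KO, at most 0.233 CPM. Cxcl14 (chromosome 13, 56288643 to 56296551, minus strand) had 5 and 0 counts in WT and 0 and 9 in KO, at most 0.135 CPM. A count of 0 allows up to 3 counts, which is 0.0688 CPM in WT replicate 3 and 0.0499 CPM in KO replicate 1. These limits cover counting error only. The groups overlapped for both genes, and both fell under the filter on low counts. Tested without that filter they did not pass (edgeR adjusted p = 0.817 for Cxcl12 and 0.933 for Cxcl14), so no difference was detectable at this depth.

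**Figure D2:**
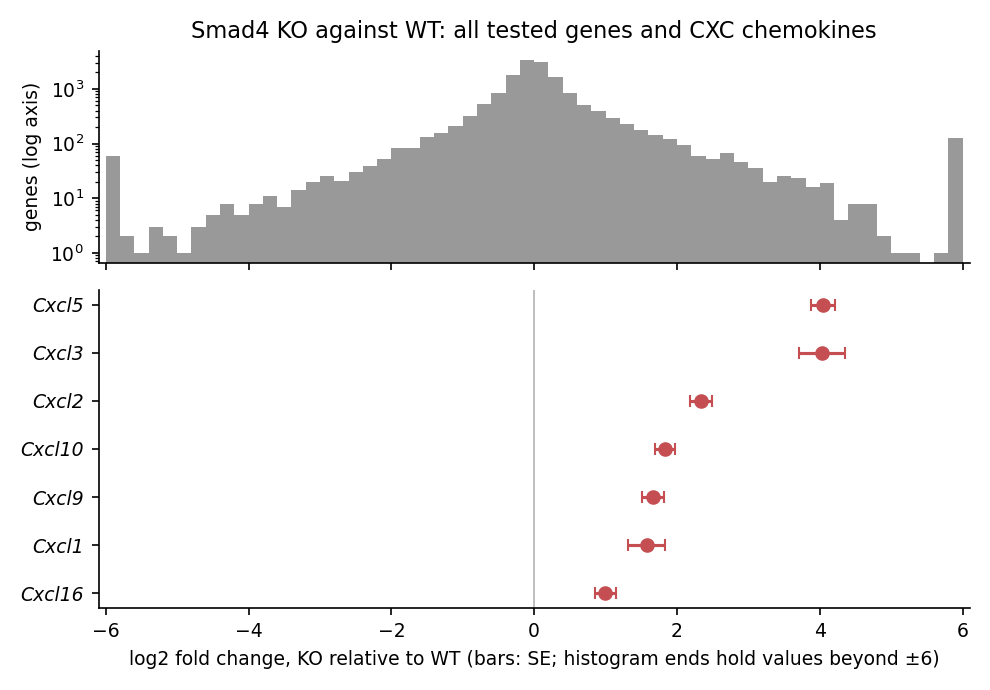
The upper panel counts all 15838 tested genes (log axis) by log2 fold change of Smad4 KO relative to WT, and the lower panel gives the 7 tested chemokines as points with bars of 1 SE. Cxcl5 and Cxcl3 sit near 4, Cxcl2 at 2.33 and the other members between 0.998 and 1.83.

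The order of the chemokines differed between the genotypes. To compare genes, CPM was divided by exon length in kilobases. In WT the highest levels per kilobase were those of Cxcl10 (3.70 ± 0.533, SD, n = 2) and Cxcl16 (3.44 ± 0.505), whose libraries overlapped. Cxcl9 (2.25) and Cxcl2 (2.21) followed and overlapped as well, then came Cxcl5 (1.45 ± 0.276), Cxcl1 (0.741) and Cxcl3 (0.0935), each apart from the gene above it. In KO Cxcl5 had the highest level per kilobase, at 24.1 ± 0.721, followed by Cxcl10 (13.2 ± 0.171) and Cxcl2 (11.2 ± 0.542), all apart from each other. Cxcl9 (7.12) and Cxcl16 (6.86) came next and overlapped, ahead of Cxcl1 (2.20) and Cxcl3 (1.52). Cxcl12 and Cxcl14 were lowest in both genotypes, at 0.0369 CPM per kilobase or less on average, and overlapped.

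Summed over the 9 genes, the level per kilobase was 13.4 and 14.5 in the WT libraries and 67.1 and 65.3 in the KO libraries, 4.76 times as high on average. The 4 ELR members alone summed to 4.85 and 4.15 in WT and to 39.7 and 38.4 in KO, 8.67 times as high. Cxcl5 made up 12.3% and 8.68% of the 9-gene sum in WT and 36.7% and 36.2% in KO. The share of Cxcl16 was 23.0% and 26.2% in WT and 9.69% and 11.1% in KO, and that of Cxcl10 was 26.5 ± 2.36% in WT against 19.9 ± 0.135% in KO. The share of Cxcl2 overlapped between the genotypes, at 18.2% and 13.7% in WT and 17.2% and 16.5% in KO. Within the ELR members, Cxcl2 held the largest share in WT (49.1 ± 1.73%, SD, n = 2) and Cxcl5 in KO (61.8 ± 0.406%). With 2 libraries against 2 these shares were not tested, since the smallest two-sided p of an exact permutation test would be 0.333.

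**Figure D3:**
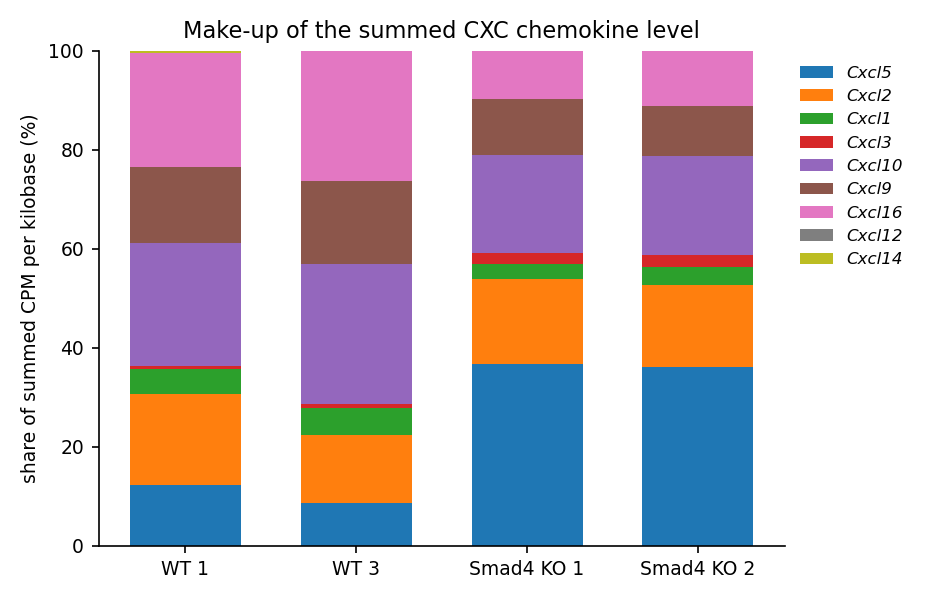
Share of each chemokine in the 9-gene sum of CPM per kilobase (%), 1 bar per library. The Cxcl5 segment is 12.3% and 8.68% in the WT bars and 36.7% and 36.2% in the KO bars, while the Cxcl16 segment is smaller in KO.

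The rise was not shared by all genes around the clusters. Of 5 other tested genes within 200 kb of the Cxcl5 to Cxcl2 cluster, 2 rose and 3 did not pass, beside 8.83% of all tested genes that rose. Both risen genes encode ligands of the EGF receptor family. Epgn (epigen) had 0.176 and 0.115 CPM in WT and 2.13 and 3.30 CPM in KO (18.1-fold, edgeR adjusted p = 0.00567), and Ereg (epiregulin) had 2.31 and 3.07 CPM in WT and 8.32 and 7.40 CPM in KO (2.93-fold, edgeR adjusted p = 0.0109). Ereg did not pass with a single KO library (edgeR adjusted p up to 0.0709), nor did Epgn without KO replicate 2 (edgeR adjusted p = 0.0563). Pf4, a platelet CXC chemokine whose gene lies between Cxcl5 and Cxcl3, had 1.41 and 1.26 CPM in WT and 0.566 and 0.944 CPM in KO, a log2 fold change of -0.82 (SE 0.453, edgeR adjusted p = 0.300). Rassf6 and Mthfd2l had log2 fold changes of -0.07 and 0.47 (edgeR adjusted p = 0.669 and 0.334).

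Around Cxcl9 and Cxcl10, 1 of 5 other tested genes rose and 4 did not pass, beside the same 8.83% of all tested genes. Scarb2, a lysosomal membrane protein, had 118 and 134 CPM in WT and 170 and 172 CPM in KO (1.36-fold, edgeR adjusted p = 0.0240), but did not pass with a single KO library (edgeR adjusted p up to 0.144). Uso1, Naaa, Sdad1 and Nup54 had log2 fold changes of -0.21 to 0.09.

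**Figure D4:**
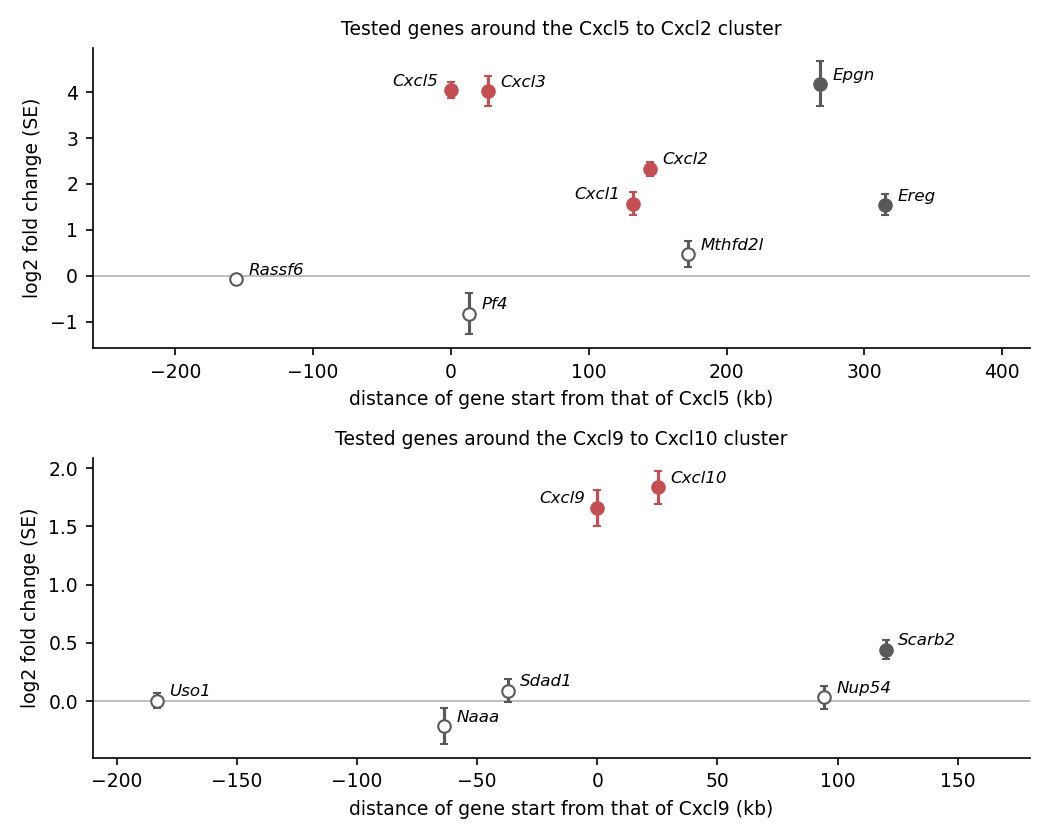
Log2 fold change with 1 SE (y axis) of each tested gene by the distance of its lower-coordinate end from that of Cxcl5 (upper panel) or Cxcl9 (lower panel), in kilobases. Red marks the chemokines described here, and open points did not pass; Epgn and Ereg (upper) and Scarb2 (lower) are the filled grey points.

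Among other CXC ligands fixed as a list, Cxcl13, Cxcl17 and Pf4 were tested and 0 passed (edgeR; 0 at an unadjusted p under 0.05, and 0 by DESeq2 or limma-voom). Cxcl13, which guides B cells, had 0.212 and 0.528 CPM in WT and 0.482 and 0.809 CPM in KO. Cxcl15 and Ppbp had no count in any library, and Cxcl11 was not analysed here.

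Of 10 receptors, 6 were tested and 1 rose (2 without WT replicate 1 and 0 without KO replicate 2). Cxcr2, the receptor of the ELR chemokines and a marker of neutrophils, had 0.529 and 0.711 CPM in WT and 3.24 and 5.07 CPM in KO. It rose 6.72-fold (log2 fold change 2.75 with an SE of 0.373 and an edgeR adjusted p of 0.00907), but it did not pass with KO replicate 2 left out (edgeR adjusted p = 0.0670). Cxcr3, the receptor of Cxcl9 and Cxcl10, had 0.212 and 0.184 CPM in WT and 0.599 and 0.240 CPM in KO (edgeR adjusted p = 0.453). Cxcr6, the receptor of Cxcl16, had 0.529 and 0.0917 CPM in WT and 0.998 and 1.14 CPM in KO (edgeR adjusted p = 0.239).

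Markers of the white blood cells known to carry these receptors were measured in the same libraries. Of 13 neutrophil markers, 10 were tested, 7 rose and 3 did not pass. S100a8 and S100a9, abundant calcium-binding proteins of neutrophils, went from means of 2.72 and 3.91 CPM in WT to 43.7 and 43.0 CPM in KO. Csf3r, the G-CSF receptor, went from 3.74 to 13.3 CPM, and Ly6g, which had the highest level on the list, from 105 to 324 CPM (edgeR adjusted p = 0.00246, 0.000434, 0.00241 and 0.00123 in the order given). The list summed to 133 and 105 CPM in WT and to 456 and 443 CPM in KO, most of it Ly6g in every library. Without Ly6g the sums were 16.3 and 11.4 CPM in WT and 127 and 124 CPM in KO. Whether the Ly6g RNA came from neutrophils was not tested. The granule genes Mpo, Elane and Camp had no count in any library. The part of neutrophil RNA in the rise of the chemokines was not tested, and in bulk libraries more cells of a type and more RNA per cell cannot be told apart.

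Of 10 T and natural killer cell markers 3 rose and 7 did not pass, and the list summed to 6.45 and 7.94 CPM in WT and 18.1 and 19.5 CPM in KO. Gzma, the highest of them, rose from 2.26 to 6.29 CPM (edgeR adjusted p = 0.00874). Nkg7 rose from 0.605 to 1.98 CPM (edgeR adjusted p = 0.0479). Cd4 had no count in WT and 0.409 CPM in KO, at least 13.7-fold higher (floor of 3 counts over the group, edgeR adjusted p = 0.0456). With a single KO library none of these 3 passed (edgeR adjusted p up to 0.249), and with a single WT library Cd4 did not pass either. Nkg7 also did not pass without WT replicate 1 or with unscaled library totals. Of 10 macrophage and monocyte markers 2 rose, Lyz2 (4.67 to 18.8 CPM, edgeR adjusted p = 0.00420) and Csf1r (3.22 to 8.14 CPM, edgeR adjusted p = 0.0131, 0.0860 without KO replicate 1). That list summed to 177 and 195 CPM in WT and 177 and 172 CPM in KO, most of it Cd14 (170 and 135 CPM, edgeR adjusted p = 0.0550). The sum thus mainly follows Cd14 and hides the other markers. The median log2 fold change of the list was 1.37, with the means of Cd14 and Mrc1 lower in KO and those of the others higher. Without WT replicate 1, 5 of these markers rose. Cd14 was called lower in that fit, by DESeq2, by limma-voom, with unscaled library totals and without the filter on low counts.

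Of 10 fibroblast and smooth muscle markers, 9 were tested and 2 rose, Fbln1 (10.0 to 31.4 CPM, edgeR adjusted p = 0.00222) and Dcn (5.55 to 9.59 CPM, edgeR adjusted p = 0.0357). Dcn did not pass when WT replicate 3 or a KO library was left out (edgeR adjusted p up to 0.200). The tested endothelial (6), B cell (2) and platelet (3) markers had 0 calls by edgeR, DESeq2 and limma-voom. At an unadjusted edgeR p under 0.05, 1 platelet marker was higher and 1 lower, and 0 of the endothelial and B cell markers were. Their highest members were Vwf (5.17 and 4.28 CPM), Ms4a1 (0.401 and 0.566 CPM) and Itga2b (1.57 and 0.715 CPM). Of 8 epithelial markers 4 rose and 1 fell (2 fell without WT replicate 3, and 2 rose with unscaled library totals), with Krt20, a keratin of mature surface cells, at 754 and 1242 CPM (edgeR adjusted p = 0.00150). Epcam rose 1.23-fold and Krt18 1.22-fold, while Krt19 fell by 0.23 on the log2 scale, and none of these 3 passed with a single KO library (edgeR adjusted p up to 0.274). The call for Epcam was also lost without WT replicate 1 and with unscaled library totals.

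**Figure D5:**
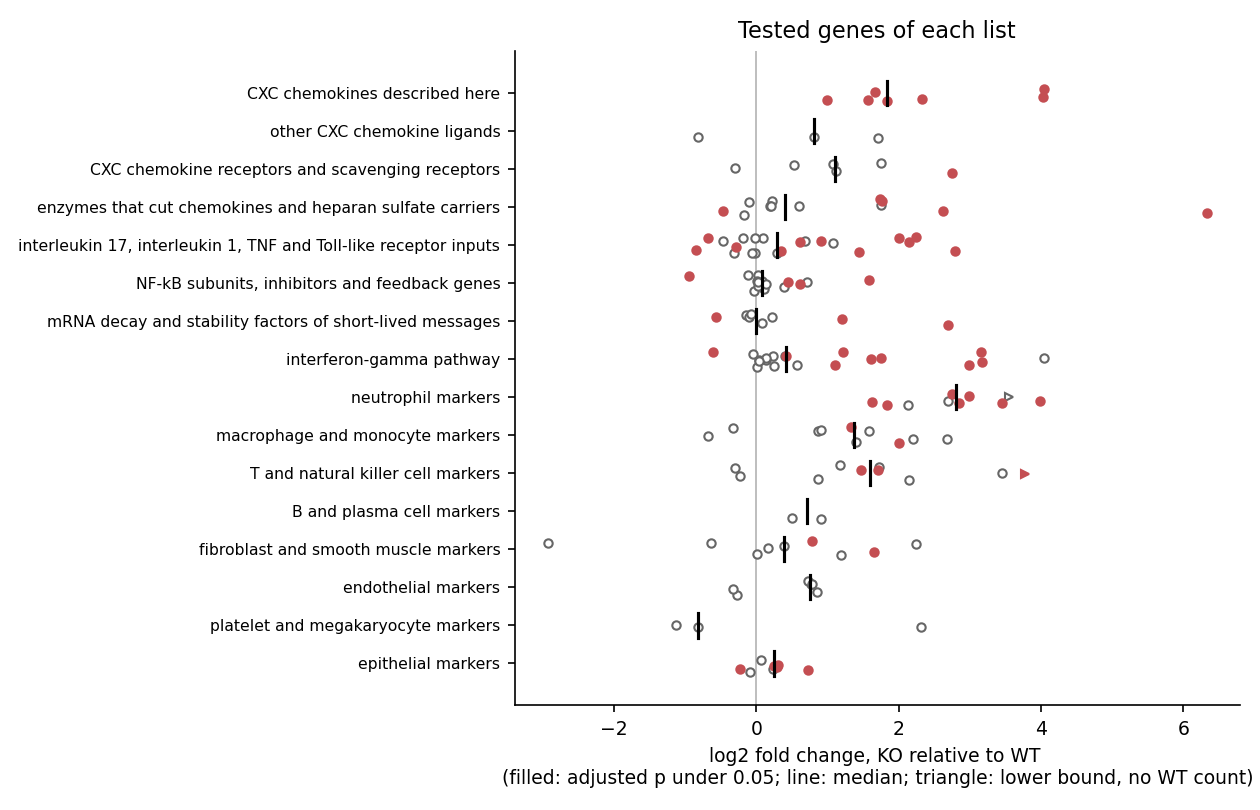
Log2 fold change (x axis) of each tested gene by list. Filled points passed at an adjusted p under 0.05, lines are medians, and the triangles (Ngp and Cd4) are lower bounds for genes without a WT count. The line of the CXC chemokines lies at 1.83 and that of the neutrophil markers at 2.80, with the NF-κB list near 0.

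Genes of the signalling pathways known to induce the ELR chemokines moved in both directions. Il17a and Il17f were not on the list. Of 22 ligands, receptors and adaptors of interleukin 17, interleukin 1, TNF and Toll-like receptor signalling, 21 were tested, 8 rose, 3 fell and 10 did not pass (median log2 fold change 0.29). The count of fallen genes was 1 without KO replicate 2 and 5 by DESeq2. Il1b, the interleukin 1β gene, had 12.9 and 11.8 CPM in WT and 58.9 and 58.3 CPM in KO (4.74-fold, edgeR adjusted p = 0.000364). Tnf had 6.59 and 6.08 CPM in WT and 24.7 and 26.0 CPM in KO (4.0-fold, edgeR adjusted p = 0.000719). The TNF receptor Tnfrsf1b rose 2.72-fold, from 91.1 to 247 CPM (edgeR adjusted p = 0.000298). The ligand genes Il1a and Il36g, chosen after their values were seen, rose 4.43-fold and 6.94-fold (edgeR adjusted p = 0.00953 and 0.0220). Il18, a cytokine stored in epithelial cells, fell from 111 to 61.3 CPM (edgeR adjusted p = 0.00235). The other fallen genes, chosen after their values were seen, were the interleukin 17 receptor chains Il17re (31.6 to 19.6 CPM, edgeR adjusted p = 0.00940) and Il17rc (199 to 163 CPM, edgeR adjusted p = 0.0422). Il17re lost its call without either KO library and Il17rc also without WT replicate 3 (edgeR adjusted p up to 0.260). Both Il1b and Tnf are also made by neutrophils and macrophages, whose markers are given above.

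Of 16 NF-κB subunits, inhibitors and feedback genes, 3 rose, 1 fell and 12 did not pass, with a median log2 fold change of 0.08. The subunit Rel rose 3.0-fold (from 17.4 to 52.4 CPM, edgeR adjusted p = 0.000778). The nuclear cofactor Nfkbiz rose 1.52-fold (means of 97.0 and 148 CPM, edgeR adjusted p = 0.00373). Tnip1, which restrains NF-κB, fell from 147 to 75.9 CPM (edgeR adjusted p = 0.00187). Bcl3 rose 1.36-fold (edgeR adjusted p = 0.0125) and did not pass with a single KO library (edgeR adjusted p up to 0.121). Nfkbia, the inhibitor that NF-κB itself induces, was chosen after its values were seen. It had 72.9 and 77.3 CPM in WT and 76.7 and 76.0 CPM in KO, a log2 fold change of 0.02 (SE 0.0700, edgeR adjusted p = 0.863).

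Messages of the ELR chemokines are short-lived, and 8 factors that control such decay were tested, of which 2 rose and 1 fell (2 fell without WT replicate 1). Zc3h12a (regnase-1), an RNA-cutting enzyme, rose 2.30-fold (62.6 to 144 CPM, edgeR adjusted p = 0.000609). Arid5a, an RNA-binding protein that opposes it, had 3.46 and 3.85 CPM in WT and 27.2 and 19.98 CPM in KO (6.46-fold, edgeR adjusted p = 0.00139). Zfp36l1, which promotes decay, was at 69.8 and 47.1 CPM (edgeR adjusted p = 0.0392), and did not pass when WT replicate 3 or a KO library was left out (edgeR adjusted p up to 0.19).

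Of 20 genes of the interferon-γ pathway, which induces Cxcl9 and Cxcl10, 8 rose, 1 fell and 11 did not pass (median log2 fold change 0.41). Ido1, an enzyme that breaks down tryptophan, rose 8.88-fold (52.0 to 461 CPM, edgeR adjusted p = 4.92e-05). Cd274, which encodes the checkpoint ligand PD-L1, rose 8.97-fold (means of 12.1 and 109 CPM, edgeR adjusted p = 0.000197). The guanylate-binding proteins Gbp5 (7.93-fold) and Gbp2 (3.36-fold) rose as well (edgeR adjusted p = 0.000221 and 0.000197). Ciita, the regulator of MHC class II genes, and Ifng itself were chosen after their values were seen. Ciita fell from 18.7 to 12.2 CPM (edgeR adjusted p = 0.0205), and did not pass with a single KO library (edgeR adjusted p up to 0.131). Ifng, a product of T and natural killer cells, had 0.212 and 0 CPM in WT and 2.58 and 1.23 CPM in KO (edgeR adjusted p = 0.0754), and it passed by DESeq2, without the filter on low counts and without WT replicate 1.

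Of 12 enzymes that cut chemokines or heparan sulfate and proteins that carry heparan sulfate, 4 rose (1 without KO replicate 2), 1 fell and 7 did not pass. Mmp9, a gelatinase that can trim ELR chemokines, had 0.952 and 1.31 CPM in WT and 6.87 and 7.0 CPM in KO (6.16-fold, edgeR adjusted p = 0.00307). Mmp8, the neutrophil collagenase, had 0.0705 and 0 CPM in WT and 2.73 and 3.90 CPM in KO (edgeR adjusted p = 0.00752). Mmp13 and Mmp7 rose 3.35-fold and 3.41-fold (edgeR adjusted p = 0.00616 and 0.0181). Mmp7 lost its call without either KO library, and Mmp8 and Mmp13 without KO replicate 2 (edgeR adjusted p up to 0.136). Dpp4, which inactivates Cxcl9, Cxcl10 and Cxcl12 by clipping them and was chosen after its values were seen, fell from 58.2 to 42.1 CPM (edgeR adjusted p = 0.0283), and did not pass with a single KO library (edgeR adjusted p up to 0.180). Adam10, which sheds Cxcl16, had 165 and 174 CPM in WT and 143 and 250 CPM in KO, so the groups overlapped (edgeR adjusted p = 0.645).

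The genes whose pattern over the 4 libraries lay nearest to that of Cxcl5 were Ltf, S100a8 and Samd5, among 10622 other tested genes with a mean of at least 5 CPM. Likeness was the Euclidean distance between log2(CPM + 1) values after the WT mean was subtracted, and the distances were 0.35, 0.362 and 0.396. Ltf (lactoferrin) had 11.1 and 10.7 CPM in WT and 168 and 172 CPM in KO. Samd5 had 2.05 and 1.67 CPM in WT and 40.4 and 43.1 CPM in KO. With 4 libraries in 2 groups, this measure mostly picks genes of the same fold change.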

How the data were processed

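The deposited values are unnormalized whole-number counts for each Ensembl gene ID in 4 libraries. Per the labels' protocols, each library started from 1.5 µg RNA and random hexamers primed the cDNA. StringTie 1.3.3b, HISAT2 2.1.0, FastQC 0.19.7 and SAMtools 1.9, with GRCm38 (mm10) as the genome, are named per the submitters' processing notes. The sources used here do not give the counting tool, its annotation and strand setting, or the treatment of reads matching several genes. GENCODE M21 named 31207 of the 31227 IDs. Columns were matched to libraries by title, and 0 columns were left over.

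Genes passing edgeR's filterByExpr (15838) were scaled by TMM, and genotype, the only term, was tested by glmQLFit and glmQLFTest (edgeR 4.0.16, R 4.3.3), with Benjamini-Hochberg adjustment and a threshold of 0.05. Folds are 2 to the power of the fitted log2 fold change, and SEs were obtained as |log2 fold change|/√F. On simulated data the fit recovered the fold changes put in on average, but the share of false calls among its calls was above the nominal level, and most of the smallest changes were missed. The simulation changed far fewer genes than were called here, so both shares may differ in the real data. The 2 libraries within each genotype were not copies: they differed beyond counting noise (mean chi-square per gene of 39.8 for WT and 32.6 for KO, where sampling gives about 1). A count of 1 stood for 0.0150 to 0.0229 CPM. PCR copies are not independent molecules, so floors cover counting error only. Level per kilobase used the union of a gene's exons.

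The members and the 15 other lists were chosen with earlier results of these data known. The text names all members, from each list up to 4 passing genes with the smallest p, the highest member of each list of other cell types, the passing genes within 200 kb of a cluster (members under 1 Mb apart) and 3 genes nearest to Cxcl5; other genes named with values were chosen after their values were seen. Il36a and Il36g were matched through RefSeq synonyms. Alternatives were DESeq2 size factors, upper-quartile and unscaled totals, keeping every gene or those with 1 CPM in 2 libraries, the tools DESeq2 1.42.0 and limma-voom (limma 3.58.1) and leaving out each library.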

Additional observations from a re-analysis of the deposited data

How the results depend on the processing

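No paired analysis was possible because the 2 groups share only the replicate number 1. Cxcl2, Cxcl3, Cxcl5, Cxcl9 and Cxcl10 kept their direction and their side of the threshold under all 11 alternatives. Leaving out single libraries gave 975 to 2573 changed genes in place of 2412, 5 to 7 risen chemokines in place of 7, and log2 fold changes of 1.46 to 1.68 for Cxcl1 (in place of 1.57) and 0.84 to 1.16 for Cxcl16 (in place of 0.998). In the fits that lost a call of Cxcl1 or Cxcl16 a single KO library was left, which is assumed to vary like the WT pair. The share of Cxcl5 in the 9-gene sum was 10.5% in WT and 36.4% in KO. Without division by length it was 7.88% and 30.0%, and by the longest transcript 35.7% in KO. It was 8.68% to 12.3% in WT and 36.2% to 36.7% in KO when 1 library was left out, an alternative chosen after seeing the data. These are the shares of the single libraries given above, so this alternative adds no separate check. DESeq2 called 3446 genes. With 15 to 17 counts in WT, the fold of Cxcl3 was limited by depth, with log2 fold changes of 3.75 to 4.32 across the fits that left out a library.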

Other observations

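Tlr4, the receptor for bacterial lipopolysaccharide and one of the signals upstream of the ELR chemokines, had 34.5 and 39.2 CPM in the WT libraries but 58.8 and 5.71 CPM in the KO libraries. The transcription factor Irf1, which acts on Cxcl9 and Cxcl10, had 261 and 256 CPM in WT and 170 and 349 CPM in KO. Both were chosen after their values were seen. In each, the KO libraries lay on opposite sides of the WT pair, while Cxcl5, Cxcl2 and Cxcl10 differed little between them (45.9 and 44.0, 23.9 and 22.3, and 29.9 and 29.4 CPM).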
